A study of Rattus norvegicus with 6 samples.

Results

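The rows of the rat gene table whose symbol begins with Nduf, the genes for the nuclear-encoded subunits and assembly factors of mitochondrial complex I, were compared between sham-operated and ischemic myocardium. The rule found 48 rows of 32623, carrying 46 distinct symbols. By a grouping of known roles, 35 rows were structural subunits, 8 were assembly factors, 2 were Ndufa4 and its paralog Ndufa4l2, and 3 were additional copies. The gene ontology column of the table placed all 35 structural subunits in complex I. Total RNA of myocardial tissue from wild-type (WT) rats was sequenced in 6 libraries. Of these, 3 came from Sham rats and 3 from ischemia (model) rats, whose LAD (left anterior descending) coronary artery had been ligated, and the sample titles of both groups give 30 min. The treatment text, shared by all samples, describes male rats that were anesthetized, ventilated and opened by left thoracotomy, and age and strain are not given in the sources used here. Libraries were made from whole tissue, and no source states which part of the heart was taken relative to the ligature.

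Complex I, or NADH:ubiquinone oxidoreductase, is the entry point of NADH electrons into the respiratory chain. Its peripheral arm holds the N module, which binds and oxidises NADH, and the Q module, which passes electrons through iron-sulphur clusters to ubiquinone. Its membrane arm pumps protons and is built around the subunits encoded by the mitochondrial genome. Accessory subunits surround this catalytic core, and assembly factors join the modules without remaining in the finished enzyme. Heart muscle is rich in mitochondria, and complex I is a known site of reactive oxygen species formation when blood flow returns after ischemia. In tissue from bulk RNA, fewer muscle cells and less RNA per muscle cell cannot be told apart.

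Each library held between 68529126 and 79591989 counts assigned to genes, and every structural subunit had at least 2073 counts in every library, so counting error was small beside the differences between libraries. Some libraries stood apart in ways that the group labels do not give. Y-linked genes had 26 counts in sham 1 and between 1772 and 4318 in the other libraries, although the rats are described as male. Markers of ventricular muscle, of which 12 of 13 were in the table and none was at 0, summed to between 28839 and 48498 FPKM (fragments per kilobase of gene, scaled to library size) in sham and between 13212 and 26633 in ischemia. These genes did not share a library order. Myl2 had 366, 2795 and 346 FPKM in sham 1, 2 and 3 and 1315, 594 and 1238 in ischemia 1, 2 and 3. Myl3 had 796, 9024 and 1021 in sham and 5691, 3180 and 5780 in ischemia. For both, sham 1 and sham 3 lay below every ischemia library. Actc1, Atp2a2, Mybpc3, Myh6 and Ryr2 were lower in all ischemia than in all sham libraries. The sum therefore does not stand for each gene of the list. The 7 atrial markers, all above 0, summed to 48666 FPKM in sham 1 and 39625 in sham 3, but to 253 in sham 2. In ischemia the atrial sum was 9671, 2084 and 1288 in replicates 1, 2 and 3. Myeloid markers, with 16 of 17 in the table, summed to between 138 and 194 FPKM in sham, and to 1304, 9001 and 2062 in the ischemia replicates. Among them Retnlg was listed at 0 in every sham library, and Clec4e, Fpr1 and Fpr2 were at 0 in at least 1 library. Fibroblast markers (6 of 7 in the table) summed to between 698 and 2247 FPKM in sham and between 271 and 706 in ischemia, mural markers (8 of 8) to between 216 and 623 and between 105 and 217, and adipocyte markers (7 of 7) to between 172 and 669 and between 40.7 and 146. Endothelial markers (6 of 7) summed to between 170 and 186 in sham and between 209 and 229 in ischemia. Cldn5, Plin1 and Ucp1 were at 0 in at least 1 library. The part of this tissue make-up in the results below was not tested.

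The sequence before the transcription start is shown for 3 genes on which the results turn, the subunit gene with the lowest fold change (Ndufs1), the Nduf-named assembly factor gene with a fold change above 0 (Ndufaf4), and the member with the lowest fold change outside the subunits (Ndufa4l2). The RefSeq table (build GRCr8) held a promoter for 41 of the 45 members that are not additional copies. The 250 bases before each start are given from 5′ to 3′, with capitals marking any of the motifs searched on both strands. These motifs were the NRF1 core GCATGCGC, ETS ACCGGAAG, YY1 AAGATGGC, ERR AAGGTCA, the hypoxia response letters ACGTG and GCGTG, and the GC box GGGCGG. They lie at chr9:72073606-72073855 on the minus strand for Ndufs1, at chr5:43401545-43401794 on the plus strand for Ndufaf4 and at chr7:65241919-65242168 on the plus strand for Ndufa4l2.
Ndufs1: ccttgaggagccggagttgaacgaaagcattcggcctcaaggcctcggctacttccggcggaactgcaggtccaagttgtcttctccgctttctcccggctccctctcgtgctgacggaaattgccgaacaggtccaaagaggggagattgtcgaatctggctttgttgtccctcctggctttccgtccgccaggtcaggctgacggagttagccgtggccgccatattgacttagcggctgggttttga
Ndufaf4: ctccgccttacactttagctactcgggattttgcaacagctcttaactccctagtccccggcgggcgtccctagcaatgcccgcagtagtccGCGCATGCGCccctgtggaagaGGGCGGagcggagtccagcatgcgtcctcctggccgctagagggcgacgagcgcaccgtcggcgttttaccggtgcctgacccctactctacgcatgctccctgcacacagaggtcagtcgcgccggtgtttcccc
Ndufa4l2: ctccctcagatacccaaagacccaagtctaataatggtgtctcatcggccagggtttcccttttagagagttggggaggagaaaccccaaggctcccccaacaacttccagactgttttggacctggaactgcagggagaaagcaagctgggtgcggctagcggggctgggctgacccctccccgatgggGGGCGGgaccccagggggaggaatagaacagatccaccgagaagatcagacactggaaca
None of the 7 motifs was found in the Ndufs1 window. The Ndufaf4 window held the NRF1 core in both orientations, overlapping itself, and a GC box, and the Ndufa4l2 window held a GC box. At the start and not wholly inside the printed bases, Ndufaf4 also held ACGTG in both orientations and Ndufa4l2 the YY1 letters. Including the 50 bases after the start, the YY1 letters occurred in 9 of 41 member promoters, against 3.17% of all 33469 promoters in the table. In all 9 the letters read in the direction of the gene and began between the base before the start and base 27 of the gene, while 1.11% of all promoters held them in that direction from that base on. That direction and that first base were taken from the members themselves, so the contrast with 1.11% is in part fixed by this choice. The ETS letters occurred in 5 of 41 (2.49% of all promoters) and the NRF1 core in 4 of 41 (2.47%). ERR occurred in 3 of 41 (4.61%), ACGTG in 11 of 41 (19.3%), GCGTG in 21 of 41 (29.7%) and the GC box in 19 of 41 (33.1%). The letters of GCGTG and of the NRF1 core can overlap, and a match describes the sequence only.

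Transcripts of the subunits were abundant and varied between libraries as a block. Summed FPKM of the 35 structural subunits was 11078, 15595 and 11306 in sham 1, 2 and 3, and 13138, 6281 and 10046 in ischemia 1, 2 and 3. Sham 2 was the highest and ischemia 2 the lowest, whereas ischemia 1 exceeded sham 1 and sham 3, so the groups overlapped. The sums averaged 12660 ± 2545 (SD, n = 3) for the sham libraries and, for the ischemia libraries, 9821 ± 3434 (SD, n = 3). Nearly every subunit kept this order on the CPM scale (counts brought to a common library size by the trimmed mean of M-values). Sham 2 was the highest library for 33 of 35 structural subunits, against 22.2% of all 13964 genes tested, and ischemia 2 was the lowest for 35 of 35, against 31.8% of all genes. Ischemia 1 lay above both sham 1 and sham 3 for 29 of 35 subunits, against 41.3% of all genes. The exceptions to sham 2 as the highest library were Ndufa1 and Ndufs5, both highest in ischemia 1.

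**Figure D1:**
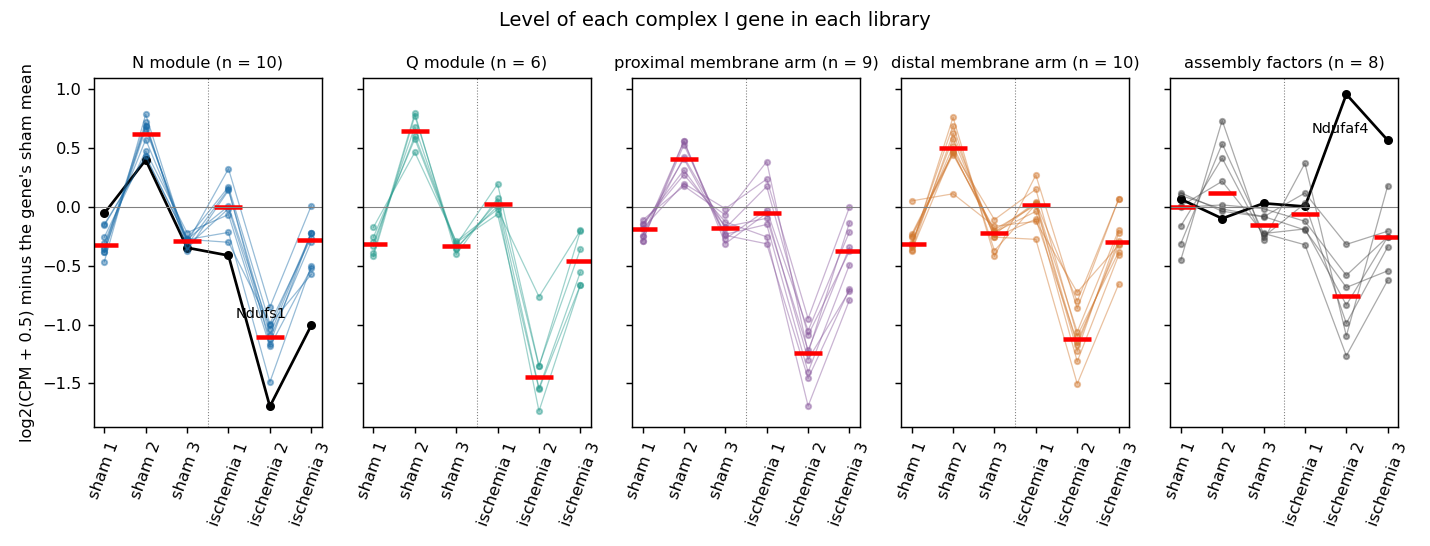
Each line is 1 gene and each point its log2(CPM + 0.5) in 1 of the 6 libraries minus its own sham mean. Red bars mark the median of the genes in the panel, black lines mark Ndufs1 and Ndufaf4, and the panels show sham 2 as the peak and ischemia 2 as the trough for all 4 structural groups.

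No member passed an adjusted p of 0.05 in the quasi-likelihood test of edgeR, in either direction, which does not show that their levels were equal. Over all genes tested, 1.53% passed as lower and 5.18% as higher in ischemia. At an unadjusted p under 0.05, 2 of 48 members were lower (Ndufs1 and Ndufa4l2) and 0 were higher, against 14.2% and 18.2% of all genes. DESeq2 and limma likewise called 0 members after adjustment, with 7 lower and 1 higher at an unadjusted p under 0.05 in DESeq2, against 18.9% and 19.7% of all genes, and 6 lower and 0 higher in limma, against 13% and 18.6%. All 3 libraries of ischemia lay below all 3 of sham for 8 members (19.1% of all genes), and all lay above for 0 members (22% of all genes). By CPM the 8 were Ndufs1, Ndufs4, Ndufa8, Ndufc2, Ndufaf2, Ndufaf3, Ndufaf5 and Ndufa4l2. The count without overlap depended on the libraries and the filter. It was 27 of 48 lower without ischemia 1, against 29.4% of all genes, and 13 of 46 lower among genes averaging 5 FPKM or more, against 21.3%.

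The direction of the estimates was shared all the same. The log2 fold change, ischemia minus sham, was below 0 for 46 of 48 members and for all 35 structural subunits, with a median of -0.43 over the members and -0.49 over the subunits, against -0.00 over all genes tested. This direction depended on the second replicates. Leaving out sham 2 alone gave a median over the members of -0.15 and leaving out ischemia 2 alone gave -0.21, whereas leaving out ischemia 1 gave -0.74. Without sham 2 the fold changes of 31 of 48 members shrank by over 1.5 times and 8 took the other sign, and without ischemia 2 these numbers were 35 and 6. Without ischemia 1 the fold changes of 29 members grew by over 1.5 times. With sham 2 and ischemia 2 both left out, a comparison added after seeing the data, the median was 0.11 over the members and 0.13 over the subunits, and 18 of 48 members were below 0. These 2 libraries are the extremes of the members themselves, so leaving them out moves the median upwards by construction. Leaving out sham 1, the library with 26 Y-linked counts, gave a median of -0.57. When libraries were scaled to the summed counts of the ventricular muscle genes, the median over all genes was 1.46 and that of the members was 0.91, with 7 members higher past the adjusted threshold, as were 39.2% of all genes, so that the members lay below the median of all genes while their own values were above 0. The direction of the members is therefore given relative to all genes.

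**Figure D2:**
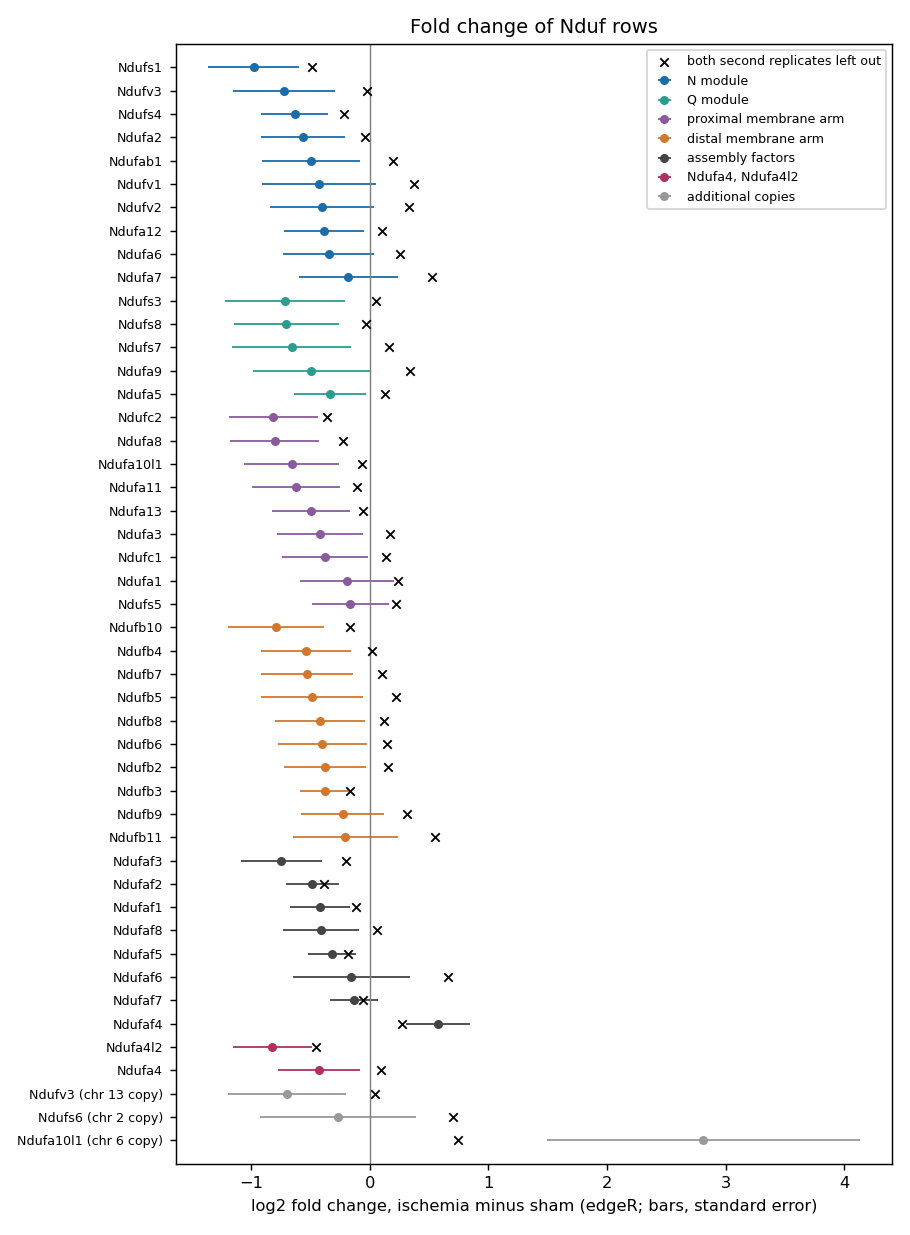
Log2 fold change of 47 of the 48 rows, ischemia minus sham, from edgeR over 6 libraries, with bars for the standard error and colours for the structural groups. Black crosses give the fold change with both second replicates left out, which is above 0 for most subunits while the filled points of all structural subunits shown are below 0.

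In the N module all 10 subunits measured had a fold change below 0, with a median of -0.46. At an unadjusted p under 0.05, 1 of them was lower, against 14.2% of all genes. That gene was Ndufs1, the largest core subunit, which carries iron-sulphur clusters between the NADH site and the Q module. The table places it on the minus strand of chromosome 9, at 69919867 to 69953182. Ndufs1 had 266, 294 and 221 FPKM in sham 1, 2 and 3, and 204, 91.1 and 129 FPKM in ischemia 1, 2 and 3. All ischemia libraries were below all sham libraries, with the smallest gap between ischemia 1 and sham 3. The means were 261 ± 37.2 and 141 ± 57.3 FPKM (SD, n = 3 each). Its log2 fold change of -0.98 ± 0.38 (SE) had an adjusted p of 0.138 in edgeR, and the exact two-sided permutation test of FPKM gave p = 0.1, the smallest that 3 against 3 allows. With both second replicates left out the fold change was -0.49, the lowest of all members, and over the 21 alternatives it ran from -1.35 to -0.49 with adjusted p between 0.0512 and 0.4. Among these, the value under ventricular scaling is relative to the median of all genes, and before that subtraction it was 0.35 (adjusted p = 0.4 in edgeR). NDUFS1 and NDUFB5 are the complex I proteins that were also measured by western blot in cardiomyocytes in the same work. Those were cultured cells after hypoxia and reoxygenation, with or without Hsp27 knockdown, so the blots do not measure this comparison of tissue.

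The other N module genes lay closer to 0. Ndufv3, an accessory subunit near the NADH site, had a log2 fold change of -0.72 ± 0.43 (SE) and Ndufs4, an accessory subunit needed for a stable N module, of -0.63 ± 0.28. Ndufv3 was at -0.31 without sham 2 and at -0.021 without both second replicates. Ndufs4 had 122, 148 and 114 FPKM in sham and 108, 72.3 and 85.5 FPKM in ischemia, without overlap. Ndufv1, which binds NADH and flavin, and Ndufv2, which carries an iron-sulphur cluster beside it, gave -0.43 ± 0.48 and -0.40 ± 0.44. Ndufa7 was the highest of the module at -0.18 ± 0.42, with 264, 451 and 284 FPKM in sham and 425, 204 and 327 FPKM in ischemia, with overlapping groups.

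**Figure D3:**
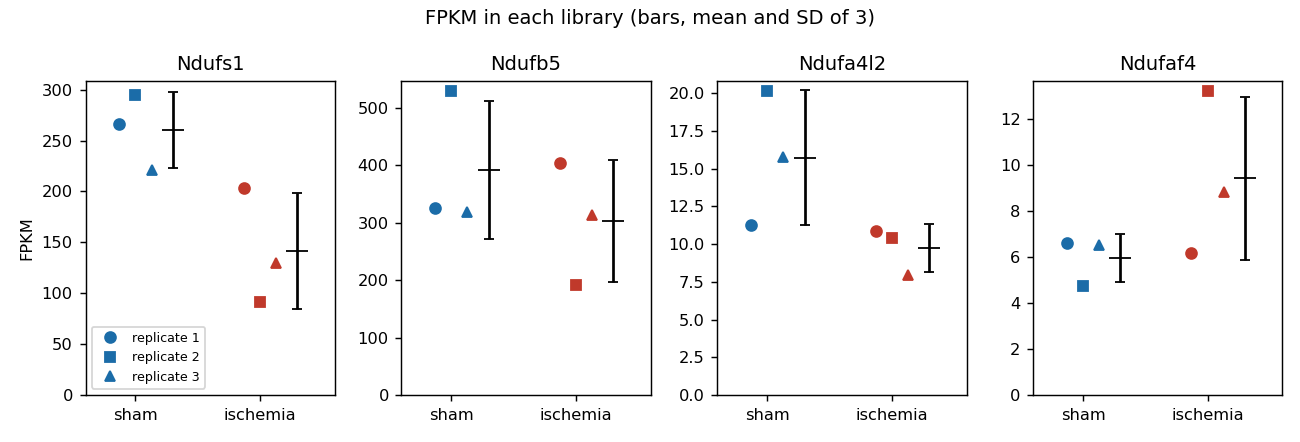
FPKM of Ndufs1, Ndufb5, Ndufa4l2 and Ndufaf4 in each of 3 sham (blue) and 3 ischemia (red) libraries, with replicate numbers as symbols and black bars for the mean and SD. Ndufs1 and Ndufa4l2 do not overlap between the groups, whereas Ndufb5 and Ndufaf4 do.

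The Q module had a median of -0.58 over 6 subunits, with 6 of 6 below 0. None was at an unadjusted p under 0.05, against 14.2% lower and 18.2% higher over all genes. Ndufs3, a core subunit of the module, had 243, 397 and 244 FPKM in sham and 303, 98 and 182 FPKM in ischemia, and a log2 fold change of -0.72 ± 0.51 (SE). Ischemia 1 exceeded sham 1 and sham 3, and the groups overlapped. The iron-sulphur subunits Ndufs8 and Ndufs7 gave -0.70 ± 0.45 and -0.66 ± 0.50, and Ndufs8 was at -0.34 without sham 2 and at -0.028 without both second replicates. Ndufa5 was the highest at -0.33 ± 0.30. The 7 nuclear core subunits of both modules summed to 2147, 3429 and 2150 FPKM in sham and to 2729.7, 1111 and 1855 FPKM in ischemia, with a median log2 fold change of -0.66. With both second replicates left out, the median was 0.14 in the Q module and 0.16 over the core.

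In the proximal membrane arm the median was -0.50 over 9 subunits, and in the distal arm -0.41 over 10, with all 19 below 0. None was at an unadjusted p under 0.05, against 14.2% lower and 18.2% higher over all genes. With both second replicates left out, these medians were -0.057 and 0.13. Ndufc2, a membrane subunit of the proximal arm, had 296, 319.9 and 304 FPKM in sham and 269, 108 and 178 FPKM in ischemia. Its sham libraries lay close together, at 307 ± 12.2 FPKM (SD, n = 3), and its log2 fold change was -0.81 ± 0.37 (SE) with an adjusted p of 0.184. Ndufa8, an accessory subunit with cysteine motifs that faces the intermembrane space, also did not overlap, with 224, 319 and 235 FPKM in sham, 216, 106 and 158 FPKM in ischemia and a fold change of -0.80 ± 0.37. Ndufa8 shares its position with a gene on the opposite strand, Morn5. Ndufs5 and Ndufa1 were the highest of the arm at -0.16 ± 0.32 and -0.19 ± 0.40. Of the distal arm, Ndufb10 was the lowest at -0.79 ± 0.40 and Ndufb11 the highest at -0.21 ± 0.44.

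Ndufb5, an accessory subunit of the distal arm and the other of these proteins, is placed by the table on the plus strand of chromosome 2, at 119139717 to 119153753. It had 325, 529.8 and 319 FPKM in sham and 404, 192 and 313 FPKM in ischemia. Ischemia 1 was above sham 1 and sham 3, and the groups overlapped. The means were 391 ± 120.2 and 303 ± 107 FPKM (SD, n = 3 each), the log2 fold change of -0.49 ± 0.43 (SE) had an adjusted p of 0.453, and the exact permutation test gave p = 0.4. The fold change lay between -0.76 and -0.054 when any 1 library was left out and was below 0 in 20 of 21 alternatives, the exception being 0.22 with both second replicates left out. Among these, the value under ventricular scaling is relative to the median of all genes, and before that subtraction it was 0.89 (adjusted p = 0.0648 in edgeR). A gene on the opposite strand overlaps Ndufb5 as well.

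Levels among the subunits differed by 8.2-fold per length. Mean sham FPKM ran from 101 for Ndufab1, the mitochondrial acyl carrier protein, to 829 for Ndufb9, with a median of 327. To see which subunits departed from the block, the median log2 CPM of the 35 subunits in a library was subtracted from each gene, a description in which every subunit also enters the median. Relative to this median, 3 of 35 subunits (8.57%) were lower in all ischemia than in all sham libraries, against 4.43% of all genes, and 6 of 35 (17.1%) were higher, against 23.5%. The 3 were Ndufs1, Ndufa8 and Ndufb10. Relative to the subunit median, Ndufs1 lay at 1.54, 1.20 and 1.33 in sham and at 1.02, 1.01 and 0.72 in ischemia, a mean difference of -0.44 that was the lowest of the 35. Among the 6, Ndufa7 lay at -0.85, -0.57 and -0.68 in sham and at -0.30, -0.21 and -0.32 in ischemia, a difference of 0.42 that was the highest of the 35. The other 5 were Ndufa6, Ndufb2, Ndufb9, Ndufb11 and Ndufs5.

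The assembly factors were less abundant and less uniform. Their mean sham FPKM had a median of 11.4, from 5.95 for Ndufaf4 to 103 for Ndufaf8, and their summed FPKM was 190.2, 226 and 186 in sham and 206, 125 and 163 in ischemia. Over the 8, the median log2 fold change was -0.36, with 7 below 0, and the median was -0.088 with both second replicates left out. The exception was Ndufaf4, a factor that acts with Ndufaf3 on the early Q module intermediate. Ndufaf4 had 6.59, 4.73 and 6.52 FPKM in sham and 6.18, 13.2 and 8.82 FPKM in ischemia. It was lowest in sham 2 and highest in ischemia 2, the reverse of the subunits, and ischemia 1 lay inside the sham range. Its log2 fold change was 0.57 ± 0.27 (SE) with an adjusted p of 0.193, and 0.27 without the second replicates. Its partner Ndufaf3 had 29, 42.3 and 31.3 FPKM in sham and 28.2, 15.8 and 21.9 FPKM in ischemia, without overlap, at -0.75 ± 0.34.

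Among the remaining factors, Ndufaf2, which attends the late addition of the N module, gave -0.48 ± 0.23 (SE), Ndufaf1, which takes part in building the proximal membrane arm, gave -0.42 ± 0.25, and Ndufaf5, which modifies a residue of NDUFS7, gave -0.32 ± 0.20. Ndufaf8 gave -0.41 ± 0.32, Ndufaf6 -0.16 ± 0.49 and Ndufaf7, a methyltransferase, -0.13 ± 0.20, with adjusted p between 0.188 and 0.845 for these 6. Ndufaf2 had 11.9, 8.87 and 10.7 FPKM in sham and 9.48, 7.21 and 7.04 FPKM in ischemia. For Ndufaf2 and Ndufaf5 the groups overlapped in FPKM and did not overlap in CPM. Ndufaf6 had 13.8, 25.8 and 15.8 FPKM in sham and 24.3, 9.26 and 20.3 FPKM in ischemia, with sham 2 highest and ischemia 2 lowest, as for the subunits. Its ischemia 3 value also lay above sham 1 and sham 3, which on the CPM scale held for 12 of 35 subunits.

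Assembly factors without an Nduf name gave a similar picture. Of 14 listed, 13 were tested, 12 had a fold change below 0 and none passed the adjusted threshold, with a median of -0.58. The median was -0.38 without sham 2 and -0.18 without both second replicates. At an unadjusted p under 0.05, 4 were lower (Tmem126b, Tmem126a, Tmem70 and Aifm1) and 0 were higher, against 14.2% and 18.2% of all genes. Without overlap on the CPM scale, 5 were lower (19.1% of all genes) and 1 was higher (22%). Dmac2 was the lowest at -0.98 ± 0.41 (SE). Tmem126b, part of the complex that assembles the proximal membrane arm, had 6.68, 6.66 and 7.74 FPKM in sham and 4.75, 2.93 and 3.77 FPKM in ischemia, at -0.96 ± 0.27 with an adjusted p of 0.0779. On the CPM scale its highest library was sham 2 and its lowest ischemia 2, as for the subunits, and without the second replicates its fold change was -0.69. Tmem126b passed the adjusted threshold in 2 of 21 alternatives. Chchd4, which imports cysteine-rich proteins into the intermembrane space, was the highest at 0.67 ± 0.29, with 7.72, 7.45 and 6.74 FPKM in sham and 11.7, 11.3 and 14.3 FPKM in ischemia, all ischemia libraries above all sham libraries.

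Ndufa4, once counted with complex I and now placed in cytochrome c oxidase, and Ndufa4l2, a paralog known as a target of hypoxia-inducible factors, lay far apart in level. Ndufa4 had 756, 1016 and 730.3 FPKM in sham and 825, 488 and 691 FPKM in ischemia, with the libraries in the order seen for the subunits. Its log2 fold change was -0.43 ± 0.34 (SE) and the exact permutation test of FPKM gave p = 0.4. Ndufa4l2 had 11.2, 20.2 and 15.8 FPKM in sham and 10.9, 10.4 and 7.94 FPKM in ischemia. The groups did not overlap, but ischemia 1 and sham 1 nearly met. Its fold change was -0.82 ± 0.33 with an adjusted p of 0.146, and the exact permutation test of FPKM gave p = 0.1, the smallest possible. Leaving out 1 library gave -1.05 to -0.46 for Ndufa4l2, the value nearest 0 being that without sham 2. Ndufa4l2 amounted to 1.49%, 1.99% and 2.16% of Ndufa4 FPKM in sham and 1.32%, 2.14% and 1.15% in ischemia. On the log2 scale this ratio differed by -0.33 between the groups (exact permutation p = 0.3), within the spread of the libraries. Ndufa4 overlaps Phf14 on the opposite strand.

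The 3 additional copies were the rows that belong least securely to the family. The second Ndufa10l1 row, a short copy on chromosome 6, had 18, 55 and 35 counts in sham and 73, 779 and 19 counts in ischemia. It passed the filter on low values only through ischemia 2, and its log2 fold change of 2.81 ± 1.32 (SE) rests on that library. A processed pseudogene overlaps it on the same strand, so its reads cannot be assigned. The longer Ndufa10l1 row on chromosome 9, where RefSeq lists Ndufa10, was counted with the proximal arm and gave -0.66 ± 0.40. The short Ndufv3 copy on chromosome 13 gave -0.70 ± 0.50. The Ndufs6 row on chromosome 2 is annotated as a processed pseudogene, with 60, 116 and 48 counts in sham and 97, 26 and 76 counts in ischemia, at -0.27 ± 0.66. RefSeq gives the protein-coding Ndufs6 gene the number that the table carries as LOC679739, a row on chromosome 1 that the symbol rule does not take in, so this subunit is not among the 35. In all, 9 members share their position with another row, 2 of them on the same strand. Reads of near-identical copies could have been split or dropped by the counting, so values of these rows are uncertain.

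The nuclear subunits were set beside the genes they work with. The 7 complex I subunits encoded by the mitochondrial genome summed to 32814, 40774 and 33352 FPKM in sham and to 34933, 28407 and 35954 FPKM in ischemia. Their log2 fold changes ran from -0.36 ± 0.46 (SE) for Mt-nd1 to 0.28 ± 0.26 for Mt-nd2, with a median of -0.23, 5 of 7 below 0 and none past the threshold. Their median was -0.070 without ischemia 2 and 0.12 without both second replicates. The summed mitochondrial ND level per summed nuclear subunit level was 2.96, 2.61 and 2.95 in sham and 2.66, 4.52 and 3.58 in ischemia, and only ischemia 2 and ischemia 3 exceeded the sham range. Nuclear subunits of complexes II to V, with 40 rows tested from a list of 54 genes, had a median of -0.37, 40 of 40 below 0 and none past the threshold, from -0.90 ± 0.36 for Sdhd to -0.15 ± 0.25 for Cox7c. Cox6b1 and Uqcrb each entered with a repeated row. Sham 2 was the highest and ischemia 2 the lowest library for all 40, and without the second replicates their median was 0.17, so the order of libraries was not particular to complex I.

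**Figure D4:**
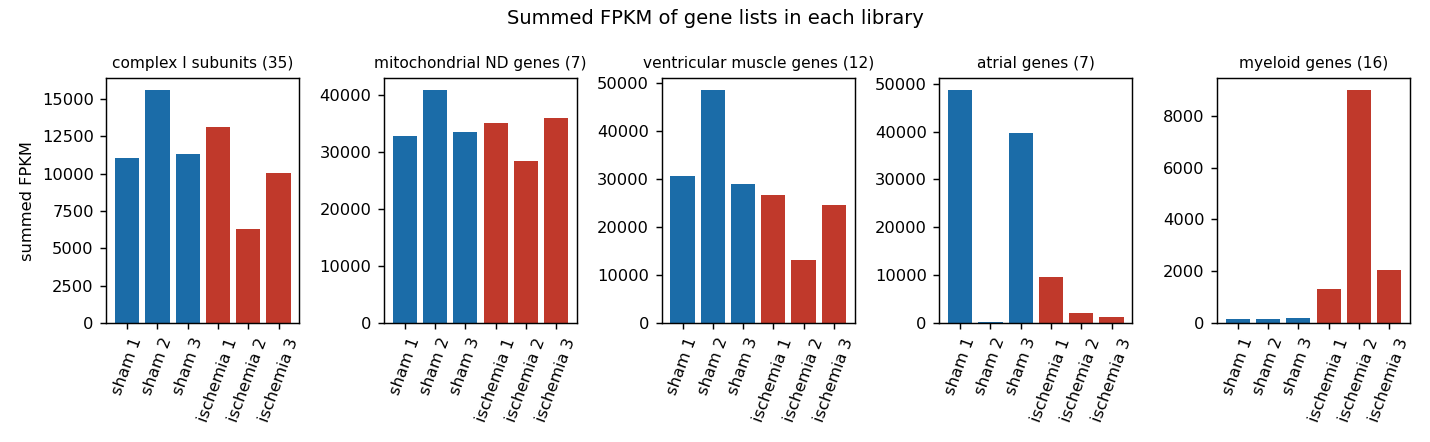
Bars give the summed FPKM of the 35 complex I subunits, the 7 mitochondrial ND genes and the ventricular, atrial and myeloid marker lists in each library, sham in blue and ischemia in red. The sums of the subunits and of the ventricular list share their highest (sham 2) and lowest (ischemia 2) library, and the myeloid sum is highest in ischemia 2.

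Of 12 ventricular muscle genes tested, 11 had a log2 fold change below 0 and none passed the threshold, with values from -2.38 ± 0.54 (SE) for Myh6 to 0.20 ± 1.04 for Myl3. Their median was -0.83, and 0.10 with both second replicates left out. Per 100 FPKM of these genes, the structural subunits had 36.1, 32.2 and 39.2 FPKM in sham and 49.3, 47.5 and 40.9 FPKM in ischemia. On that measure the groups did not overlap and ischemia was the higher, with sham 2 the lowest library instead of the highest. With counts scaled to the ventricular muscle genes, 46 of 48 members were higher without overlap, as were 67.1% of all genes. The median log2 fold change was then 0.91 over the members and 1.46 over all genes. Atrial genes had a median of -3.66, with 7 of 7 below 0 and none past it. Among 12 regulators of respiratory chain transcription, Esrrg, an estrogen-related receptor of heart muscle, fell by 1.30 ± 0.27 on the log2 scale (adjusted p = 0.0445), and Pprc1, a PGC-1-related coactivator, rose by 1.43 ± 0.23 (adjusted p = 0.0339). Esrrg passed in 6 of 20 alternatives, and its call ended on leaving out any 1 library other than ischemia 1. Under ventricular scaling Esrrg had a log2 fold change of 0.053 (adjusted p = 0.925 in edgeR) before the median of all genes was subtracted. Pprc1 passed in 14 of 21, and its call ended without ischemia 3 or without any of the sham libraries. The other regulators did not pass, with a list median of -0.17 and Ppargc1b lowest at -1.76 ± 0.46. Of 11 hypoxia-inducible factor targets tested, 1 passed the threshold as higher, against 5.18% of all genes. This was Ddit4, an inhibitor of mTOR signalling, at 1.48 ± 0.24 (adjusted p = 0.0327 in edgeR). Of the 11, 3 had a fold change below 0, and 2 were higher at an unadjusted p under 0.05, against 18.2% of all genes. All ischemia libraries lay above all sham libraries for 3 (22% of all genes), Ddit4, Ldha and Slc2a1. Ddit4 also passed in 14 of 21 alternatives and lost its call without the same libraries as Pprc1. In those 4 fits of edgeR 0% of all genes passed after adjustment, while 7.62% to 12.1% were lower and 12.7% to 15.2% higher at an unadjusted p under 0.05. When any 1 library was left out the fold change stayed between -1.50 and -1.13 for Esrrg, at 1.31 or above for Pprc1 and between 1.28 and 1.67 for Ddit4. The list ran from -0.09 ± 0.50 for Pdk1 to 3.79 ± 1.01 for Slc2a1, the glucose transporter, with a median of 0.48. Without ischemia 2 the value for Slc2a1 was 2.01 and the list median 0.12.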

How the data were processed

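The authors deposited 1 table of 32623 Ensembl rat genes with raw read counts, which are whole numbers and not normalized, and FPKM values, which they had scaled by gene length and library size, with 0.0001 in place of 0. Per the labels, a stranded total RNA kit was used, and the submitters' processing notes name STAR and HTSeq without versions, roles or settings. The genome build is not given in the sources used here, so positions are as the table lists them and promoters carry the RefSeq build. Counts were tested with the quasi-likelihood test of edgeR 4.0.16 (R 4.3.3, trimmed mean of M-values, model of group alone) over the 13964 genes whose FPKM averaged 0.5 or more, and p-values were adjusted by Benjamini-Hochberg over all of them at 0.05. All 48 members passed this filter. The standard error of a fold change is the fold change divided by the root of the F statistic. DESeq2 1.42.0 and limma 3.58.1 (log2(FPKM + 0.1)) were alternatives, beside other scalings, filters and pseudocounts, a replicate block and leaving out each library. FPKM of Ndufs1, Ndufb5, Ndufa4 and Ndufa4l2 was also tested by exact two-sided permutation in SciPy 1.17.1. Replicates are separate samples per the labels, and whether they were separate animals is not stated, so p-values measure the spread between these samples. The scripts were tested on simulated data, in which edgeR called no changed gene after adjustment at the smaller of the simulated fold sizes, a size larger than the estimate of any structural subunit. At that size DESeq2 called 20 genes after adjustment, of which 11 had not been changed, so its shares of called genes are less strict. The members, lists and tests were chosen with earlier results of these data known. Named genes were the 5 lowest and 5 highest members, the nuclear core, Ndufb5, Ndufa4, Ndufa4l2, the assembly factors and the extremes of each group and list by a written rule, and 1 member enters the counts, sums and medians but is not reported here on its own.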

Additional observations from a re-analysis of the deposited data

How the results depend on the processing

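No alternative called a member lower after adjustment, and 1 called members higher, the scaling to ventricular genes (7, against 39.2% of all genes). The median log2 fold change of the members was below 0 in 19 of 21 alternatives. The exceptions were both second replicates left out (0.11) and ventricular scaling (0.91, with a median over all genes of 1.46), and it was -0.94 against sham 2 alone, a comparison added after seeing the data in which sham 2, the highest library of most members, fixes the direction. Leaving out 1 library gave -0.74 (without ischemia 1) to -0.15 (without sham 2), 0 to 9 members lower and 0 to 1 higher at an unadjusted p under 0.05, and 8 to 27 lower and 0 to 1 higher without overlap. Of all genes, 7.62% to 19.1% were lower and 12.7% to 20.4% higher at that p, and 20.9% to 29.4% lower and 23.6% to 30.2% higher without overlap. The cause was not tested for any of these.

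With the share of all genes called the same way in parentheses, members lower at an unadjusted p under 0.05 numbered 7 in DESeq2 (18.9%, and 1 higher, 19.7%), 6 in limma at each pseudocount (12.9% to 13%), 5 at a mean FPKM of at least 5 (16.4%), 15 after quantile normalization (16.8%), 1 with total counts (12%), 0 with ventricular scaling (1.21%, and 28 higher, 57.3%) and 0 with both second replicates left out (13.8%, and 3 higher, 16.4%). Members without overlap were 13 lower at a mean FPKM of at least 5 (21.3%), 4 without a filter (15.1%), 22 after quantile normalization (20.6%), 43 lower (35.6%) and 1 higher (37.6%) against sham 2 alone, 14 higher (32.6%) with both second replicates left out, and 0 lower (1.05%) and 46 higher (67.1%) with ventricular scaling.

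Group medians with both second replicates left out were 0.15 (N module), 0.14 (Q module), 0.13 (distal arm), 0.16 (core), -0.057 (proximal arm) and -0.088 (assembly factors), against sham 2 alone -1.03 (N module) and -1.21 (Q module), and with ventricular scaling 0.92 (N module), 0.77 (Q module), 0.82 (proximal arm), 0.91 (distal arm), 0.68 (core) and 1.003 (assembly factors). Leaving out 1 library, the ratio of Ndufa4l2 to Ndufa4 (log2) ran from -0.59 to -0.14 and the summed FPKM (log2) from -0.65 to -0.12.

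With both second replicates left out, 28 of 48 members turned to the other sign. Those given a fold change above were Ndufa4 (0.10), Ndufa5 (0.13), Ndufa7 (0.52), Ndufb11 (0.55), Ndufs3 (0.053), Ndufb5 (0.22), Ndufv1 (0.37), Ndufs7 (0.16), Ndufs5 (0.22), Ndufa1 (0.24), Ndufaf6 (0.66), Ndufv2 (0.33), Ndufaf8 (0.065) and the copies of Ndufs6 (0.70) and Ndufv3 (0.040), and outside the family Pdk1 (0.82), Cox7c (0.20) and Mt-nd1 (0.29). Leaving out 1 library, the range of those given a fold change above crossed 0 for Ndufa7 (-0.45 to 0.25), Ndufb11 (-0.44 to 0.28), Ndufs6 (-0.55 to 0.30), Ndufv1 (-0.74 to 0.077), Ndufs5 (-0.42 to 0.11), Ndufa1 (-0.60 to 0.14), Ndufaf6 (-0.44 to 0.32), Ndufv2 (-0.70 to 0.053), Pdk1 (-0.39 to 0.72), Cox7c (-0.27 to 0.070) and Mt-nd1 (-0.56 to 0.063). Pdk1 was also above 0 in limma (0.23 at each pseudocount), after quantile normalization (0.061), with total counts (0.079), relative to all genes under ventricular scaling (0.040) and with the replicate block (0.17).

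The replicate block, in which equal numbers in the labels are treated as pairs, gave 0 members lower at an unadjusted p under 0.05 (10.9% of all genes), and 0 genes passed after adjustment. Deviations of samples with equal numbers correlated at -0.07, -0.16 and -0.19. The mean correlation was -0.14 for equal numbers and 0.065 for different numbers. With so few samples per group, these values cannot decide whether the numbers pair the samples.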
